A study of Homo sapiens with 2 samples.

Results

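The protein-coding genes of the cytosolic large ribosomal subunit, named RPL or RPLP, were examined in 2 lists of peaks. The genes were taken by symbol from the GENCODE 29 annotation, and a peak was a member's peak where its gene identifier mapped to 1 of the 45 protein-coding symbols, so that pseudogenes with similar names were kept apart. All 45 had peaks in both libraries, against 56.9% of the 19688 annotated protein-coding genes with a coding transcript. They held 562 peaks of 96682 in replicate 1 and 579 of 105125 in replicate 2.

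The series maps RNA that associates with CCR4-NOT, the main complex that shortens the poly(A) tails of messenger RNAs and so starts their decay. It held 1 group of 2 libraries, labelled TRACER replicates 1 and 2, a name that no label explains. Both came from HEK293T, an established human embryonic kidney line, treated with doxycycline at 3 ug/mL for 24 h. RNA was prepared from the cytoplasm with Trizol, and libraries were made with a Qiagen protocol for microRNAs. Doxycycline often serves to induce a transgene; which one it would be here is not stated. The libraries used here include no untreated, input or total RNA sample. Binding and the amount of each messenger RNA therefore cannot be told apart, and every value below is a description of 2 libraries, with mean ± SD (n = 2) and no p-value.

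Large subunit proteins wrap the ribosomal RNA that joins amino acids, line the tunnel through which the new protein leaves and build the stalk that recruits translation factors. Their messenger RNAs are among the most abundant in a growing cell, are short, have very short untranslated regions (UTRs), and mostly begin with a C followed by a run of pyrimidines, the terminal oligopyrimidine (TOP) motif through which their translation is set by nutrient signals. Many of the genes carry small nucleolar RNAs (snoRNAs) in their introns, which guide modifications of ribosomal RNA after release from the spliced intron. Nearly all have processed pseudogenes, copies of the messenger RNA inserted elsewhere in the genome.

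The sequences at the summits of 9 of the 10 strongest peaks found in both libraries are shown first, because they are among the stretches on which the most member reads piled up; the RPL8 summit, which had the most reads, is not printed. Each is 30 nt of coding sequence, written 5′ to 3′ on the sense strand with GRCh38 coordinates, from the GENCODE 29 transcript, and capitals mark the 4-nt summit interval deposited for replicate 1.
RPL37A, chr2:216499956-216499985, plus strand: tgaagagacgagctGTGGggatctggcact
RPL37A, chr2:216499993-216500022, plus strand: ctgcatgaagacagTGGCtggcggtgcctg
RPL36, chr19:5691341-5691370, plus strand: tcgtgcgggacatgATTCgggaggtgtgtg
RPL36, chr19:5691554-5691583, plus strand: agaggaagcgggagGAGCtgagcaacgtac
RPL35, chr9:124857952-124857981, minus strand: gaccaagaagcagCAGCggaaggagcggct
RPL35, chr9:124861501-124861530, minus strand: gcgggaagaagaaGGAGgagctgctgaaac
RPL27A, chr11:8684801-8684830, plus strand: acaaattgtggactTTGGtcagtgaacaga
RPL14, chr3:40457947-40457976, plus strand: gccggaaaattggtCGCGattgtagatgtt
RPL32, chr3:12839473-12839502, minus strand: acaacagggttcgTAGAagattcaagggcc
The 9 summit intervals differ from each other. Their G content ran from 8 of 30 bases at the RPL27A summit to 14 of 30 at the first RPL36 summit.

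The snoRNAs below lie in introns of members and are shown because they held a large part of their host gene's peak reads. They are printed whole from GENCODE 29 on GRCh38, with box C and box D, the short motifs that define this class, in capitals.
SNORD102 in RPL21, chr13:27255064-27255135, plus strand: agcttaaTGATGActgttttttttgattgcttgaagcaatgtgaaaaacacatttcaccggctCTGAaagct
SNORD43 in RPL3, chr22:39319050-39319113, minus strand: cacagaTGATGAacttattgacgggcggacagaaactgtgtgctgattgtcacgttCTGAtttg
SNORD83A in RPL3, chr22:39315213-39315307, minus strand: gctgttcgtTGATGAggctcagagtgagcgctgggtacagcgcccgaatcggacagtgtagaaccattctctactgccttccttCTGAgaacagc

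The first question was how much of the deposited signal lay on these genes and how alike the libraries were. Member peaks held 30056 of 1585456 peak reads in replicate 1 and 31551 of 1663919 in replicate 2, which was 1.90% in each library and differed by an SD of 0.00032 percentage points. A member peak had a median of 43 and 44 reads, against 6 and 6 over all peaks, and a median width of 34 and 31 nt, against 27 and 28. Of member peaks, 95.7% and 96.9% had a deposited p-value no higher than 1e-05, against 33.7% and 36.4% of all peaks. Of the 562 member peaks of replicate 1, 523 overlapped a peak of replicate 2, listed under any gene, on the same strand by at least 1 nt. That is 93.1%, with an exact Clopper-Pearson 95% interval of 90.6 to 95.02% that covers counting error only. In the other direction 547 of 579 did, 94.5% with an interval of 92.3 to 96.2%. Over all peaks the shares were 60.6% and 55.9%. Among peaks of at least 50 reads all 235 and all 252 member peaks overlapped, and so did 98.6% and 99.0% of all peaks of that size, so at matched height the members were near the rest. Among the 20 and 19 member peaks under 10 reads, 35% and 42.1% overlapped. The share over all peaks under 10 reads was not taken, so these 2 values cannot be compared at matched height.

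Summits were placed within a few bases of each other. There were 491 pairs of overlapping member peaks, and the median distance between their summits was 2 nt, with 80.9% of pairs within 5 nt. Of these pairs 370 lay in the coding sequence of the representative transcript, the principal isoform of each gene, and 47 lay on snoRNAs. The 10 strongest pairs were all in coding sequence and belonged to 7 genes. The strongest was in RPL8, with 295 and 305 reads and a summit 762 nt after the first base of the start codon, 9 nt before the stop codon. RPL8 sits beside the site where peptide bonds form. RPL37A, a small zinc-binding protein, followed with 279 and 288 reads at a summit 154 nt into its coding sequence and 211 and 228 reads at a summit 191 nt in. RPL36 had 266 and 314 reads at 130 nt and 223 and 294 reads at 265 nt. RPL35, at the rim of the exit tunnel, had 213 and 239 reads at 323 nt and 202 and 246 reads at 43 nt. Single peaks of RPL27A (200 and 189 reads), RPL14 (172 and 195) and RPL32 (167 and 223) completed the set. Only the RPL27A peak of these 10 had fewer reads in replicate 2 than in replicate 1.

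The place of the strongest peak within the coding sequence varied over the 44 members that had one. Its median was 0.460 ± 0.013 of the way from start to stop codon. In replicate 1 it ran from 0.00633 to 0.984, with a median of 0.468 and quartiles of 0.252 and 0.769, and in replicate 2 from 0.0087 to 0.983, with a median of 0.451 and quartiles of 0.254 and 0.663.

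Reads per gene ranged from 93 (RPL21) to 1701 (RPL3) in replicate 1, with a median of 599, and from 66 (RPL21) to 1508 (RPL8) in replicate 2, with a median of 660. As a share of each library's peak reads, the ratio of replicate 2 to replicate 1 ran from 0.676 in RPL21 to 1.42 in RPL36, with a median of 0.997, so no member's share differed by 2 times or more between libraries.

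**Figure D1:**
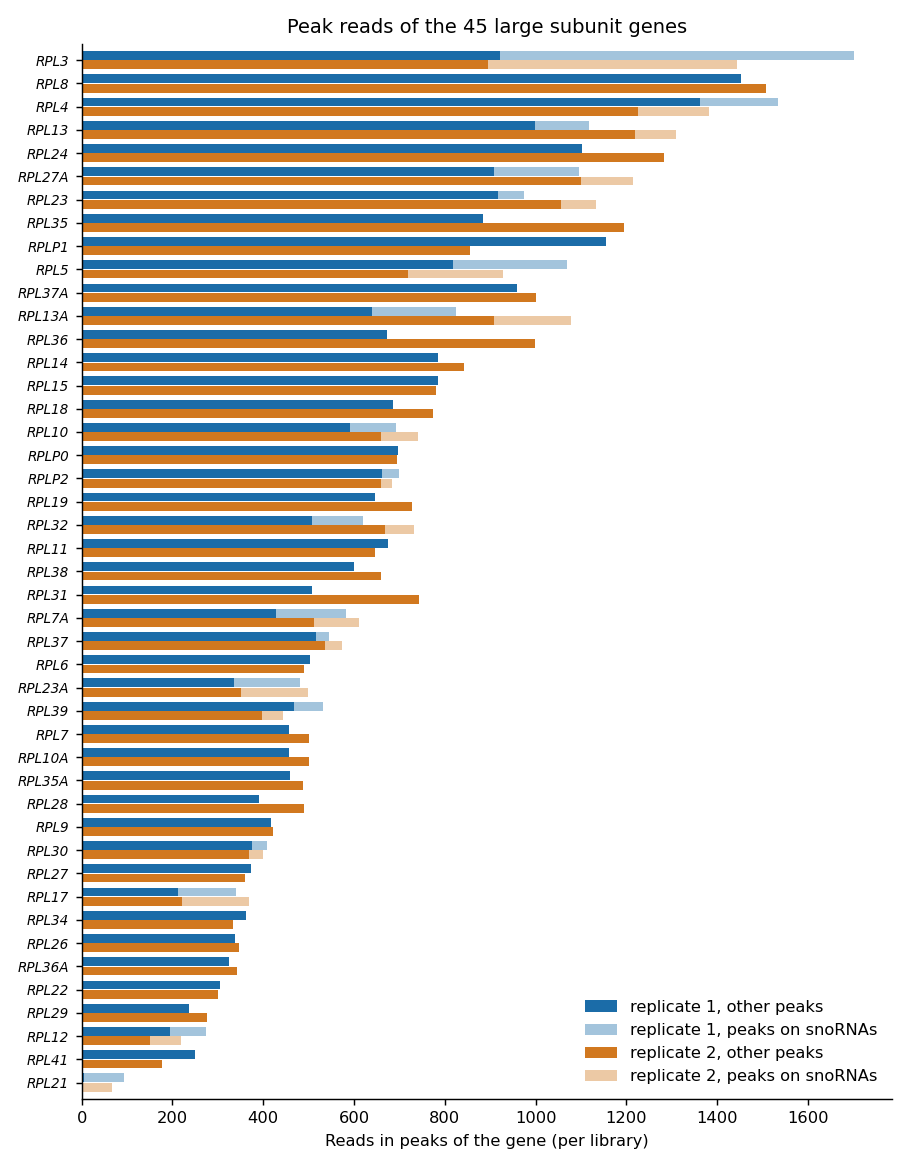
Reads in peaks of each of the 45 genes (horizontal axis, reads per library), with replicate 1 in blue and replicate 2 in orange, and the part on snoRNAs in a lighter shade. RPL3 leads replicate 1 with 1701 reads, of which 780 are on snoRNAs, and nearly the whole bar of RPL21 is the lighter shade.

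At the catalytic and tRNA sites of the subunit, RPL3, which reaches toward the peptidyl transferase centre, had 1701 and 1444 reads. RPL8 had 1452 and 1508 reads. RPL10, which is added late in subunit assembly, had 693 and 741 reads, and RPL10A, the protein of the mobile L1 stalk, had 457 and 500. The coding sequence of RPL10 was covered by peaks of both libraries over 69.5% of its bases, against 55.4% in RPL8, 43.7% in RPL3 and 35.8% in RPL10A. By total reads, the most reads therefore did not go with the widest cover, but totals include reads on snoRNAs and are not scaled to length. Per kb of coding sequence and without reads on snoRNAs, RPL8 had 1876 and 1948, RPL10 915 and 1022, RPL3 760 and 738, and RPL10A 699 and 765. On that measure RPL8 was above RPL10 in both libraries, with narrower cover.

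RPL5 and RPL11 carry the 5S ribosomal RNA into the subunit and, when free, bind the p53 regulator MDM2. RPL5 had 1069 and 929 reads, of which 250 and 210 lay on its snoRNAs, and RPL11 had 674 and 647 reads with no snoRNA. Cover in both libraries was 49.7% for RPL5 and 65.4% for RPL11.

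The stalk differed among its proteins. RPLP1 had 1156 and 856 reads, RPLP2 698 and 684, RPLP0, the scaffold of the stalk, 696 and 695, and RPL12, at the stalk base, 274 and 218. Per kb of coding sequence, and without reads on snoRNAs, RPLP1 had 3351 and 2481 reads, RPLP2 1899 and 1894, RPLP0 730 and 729, and RPL12 392 and 301. The 2 small acidic proteins RPLP1 and RPLP2 were therefore above RPLP0 and RPL12 in both libraries, and the order of all 4 was the same in each. Peaks of both libraries covered 96.2% of the RPLP1 coding sequence and 69.8% of that of RPLP2, but 38.9% of RPLP0 and 34.7% of RPL12. RPL12 had 63.7% of its coding bases in stretches with 5 or more pseudogene copies, counted as described below. The share was 2.10% in RPLP0, 2.03% in RPLP1 and 0% in RPLP2. The part of such copies in the low values of RPL12 was not tested.

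Among the 8 proteins of the exit tunnel and its rim, RPL4, whose loop narrows the tunnel, had the most reads, 1533 and 1381, with 50.7% of its coding sequence under peaks of both libraries. RPL35 had 884 and 1194 reads and 79.0% cover, and RPL19 647 and 727 reads and 63.8% cover. RPL31 had 508 and 743 reads and 82.0% cover, the widest of this set, and RPL39, one of the shortest ribosomal proteins, had 531 and 444 reads and 69.2% cover. RPL23A, a docking site for factors that meet the emerging protein, had 481 and 499 reads and RPL26 338 and 346. RPL17 had 339 and 369 reads and the lowest cover of the set, 30.5%. Cover by peaks of both libraries in these 8 had a median of 63.2%, against 49.6% in the 4 catalytic and tRNA site proteins, 54.4% in the 4 stalk proteins, 57.5% in the 2 of the 5S particle and 68.7% in the other 27. The ranges of all these sets overlapped.

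Of the other proteins, RPL13 had 1117 and 1309 reads, RPL24, which forms a bridge to the small subunit, 1103 and 1283, RPL27A 1096 and 1215, and RPL23 975 and 1132. RPL24 had a peak of 175 and 147 reads with its summit 3 nt into the coding sequence and another of 159 and 173 reads at 7 nt. They lay on either side of the intron that splits its start region. Over all members, 125 of 416 coding sequence peaks in replicate 1 (30.05%) and 117 of 439 in replicate 2 (26.7%) began or ended exactly at an exon edge, so the number of peaks of a gene also counts its exons. The fewest reads after RPL21 were in RPL41, the shortest member with 78 nt of coding sequence (249 and 177 reads), in RPL12, in RPL29 (237 and 276) and in RPL22 (304 and 300).

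Across the 45 genes, peaks of replicate 1 covered a median of 73.7% of the coding sequence, peaks of replicate 2 71.5%, and peaks of both 66.1%, with a range from 0% in RPL21 to 100% in RPL37A and RPL38. RPL27A came next with 97.1%. Of the members, 34 had at least 50% of their coding sequence under peaks of both libraries, against 2.23% of the 11199 protein-coding genes with a peak in both, whose median was 2.12%. RPL37A had 3437 and 3584 reads per kb of coding sequence, the most of all members in both libraries. The small subunit proteins, named RPS, were alike, with a median of 64.7% and 21 of 32 genes at 50% or more. The median was 37.8% in 19 other translation genes with TOP messenger RNAs, such as EEF2 and RACK1, and 21.5% in 49 large subunit proteins of the mitochondrial ribosome, whose messenger RNAs are also made in the nucleus and translated in the cytoplasm. In 6 of the 7 close paralogs of members with peaks in both libraries it was 22.0%. Over all peaks of each gene, the median number of reads per kb of coding sequence was 1208 and 1205 in the members, 1252 and 1171 in the small subunit genes, 587 and 612 in the other TOP genes, 128 and 157 in the mitochondrial genes and 25.5 and 31.7 in all protein-coding genes, so members and small subunit genes were close on both measures and the other lists followed in the same order of cover and of density. In the range of density that the middle of the members spans, 760 to 1876 reads per kb in replicate 1 and 765 to 1948 in replicate 2, 21 members had a median cover of 68.1% and 148 other protein-coding genes 46.1%. Reads on snoRNAs were left out for the members only in this last pair of values. Density also counts a gene's reads outside the coding sequence, while cover is of coding sequence only. Like density therefore need not mean like numbers of reads in coding sequence. Whether the difference in cover belongs to binding, transcript amount, length or the place of the reads was not tested.

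Coding sequence held most member reads. Where a summit was given to a region over all annotated isoforms, with the 3′ UTR taken first, 77.9% ± 2.06 of member reads lay in coding sequence, 8.82% ± 0.0027 in the 3′ UTR, 6.79% ± 0.98 in the 5′ UTR, 4.18% ± 0.63 in exons of non-coding isoforms and 2.35% ± 0.45 in introns. On the representative transcript alone, coding sequence held 81.7% ± 2.64, the 3′ UTR 3.35% ± 0.23 and the 5′ UTR 5.86% ± 0.97. Several 3′ UTR values therefore depend on alternative isoforms whose 3′ UTR overlies coding sequence of the principal one. RPL36 had 33.5% and 40.1% of its exonic reads in the 3′ UTR over all isoforms and 0% on the representative transcript, and the second RPL36 summit printed above is 1 such case. RPL31 (39.4% and 29.5%), RPL35 (29.8% and 26.4%), RPL26 (32.2% and 25.7%), RPL28 (23.3% and 20.8%), RPL27A (20.5% and 18.6%), RPL23 (19.8% and 19.4%) and RPL15 (22.8% and 13.7%) also came to 0% on the representative transcript.

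In 8 members the 3′ UTR held at least 10% of exonic reads in both libraries under either rule. RPL39 had 62.1% and 42.7% on the representative transcript and RPL29, a heparin-binding protein, 28.7% and 23.6%. RPL38, known for its part in translation of Hox messenger RNAs, had 18.2% and 17.7%, RPL37 18.4% and 14.4%, and RPL9 15.8% and 14.96%. RPL35A had 14.2% and 14.99%, RPL22 12.8% and 12.7%, and RPL12 14.4% and 11.3%. For 27 members no peak had its summit in the 3′ UTR of the representative transcript in either library, although peaks may extend into it.

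The 5′ UTR held more member reads than the 3′ UTR on the representative transcript. Over all isoforms, RPL41 had 51.0% and 52.5% of its exonic reads there, RPL38 30.4% and 29.7%, RPL35A 22.3% and 24.6%, RPL29 19.8% and 17.4%, RPL30 18.1% and 17.1%, and RPLP0 17.4% and 18.1%. RPL10 13.1% and 10.2% and RPL39 11.3% and 16.0%. The values for RPL17 and RPL32 depended on the rule. RPL17 had 34.8% and 31.7% over all isoforms, 39.2% and 22.2% without summits on snoRNAs, and 26.7% and 10.9% on the representative transcript. RPL32 had 22.3% and 11.4%, but 5.13% and 2.99% without summits on SNORA7A, which overlap the 5′ UTR. RPLP1 was the least even, with 26.4% in replicate 1 and 7.13% in replicate 2. For RPL41, whose coding sequence is 78 nt, a 5′ UTR share is a share of a very small gene.

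Around the codons that bound translation, the first base of the start codon lay under peaks of both libraries in 25 of 45 members, against 8.71% of protein-coding genes with a peak in both, and the last base of the stop codon in 18, against 4.84%. In the 30 nt before the start codon a mean of 51.6% and 47.0% of bases were covered, in the 30 nt from it 72.1% and 64.4%, and in the next 60 nt 69.9% and 69.3%. Before the stop codon cover was 72.3% and 69.1% from 90 to 30 nt upstream, 63.6% and 60.3% in the last 30 nt, and 35.2% and 35.1% in the 30 nt after it. Cover thus fell off on both sides of the coding sequence rather than standing highest at either codon. In small subunit genes the 30 nt from the start codon stood higher, at 88.2% and 77.3%, than the next 60 nt, at 70.3% and 69.2%, and the 30 nt before the stop codon were covered to 48.96% and 49.9%. The values over all protein-coding genes were 16.5% and 17.8% in the 30 nt from the start codon and 7.14% and 7.65% after the stop codon.

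**Figure D2:**
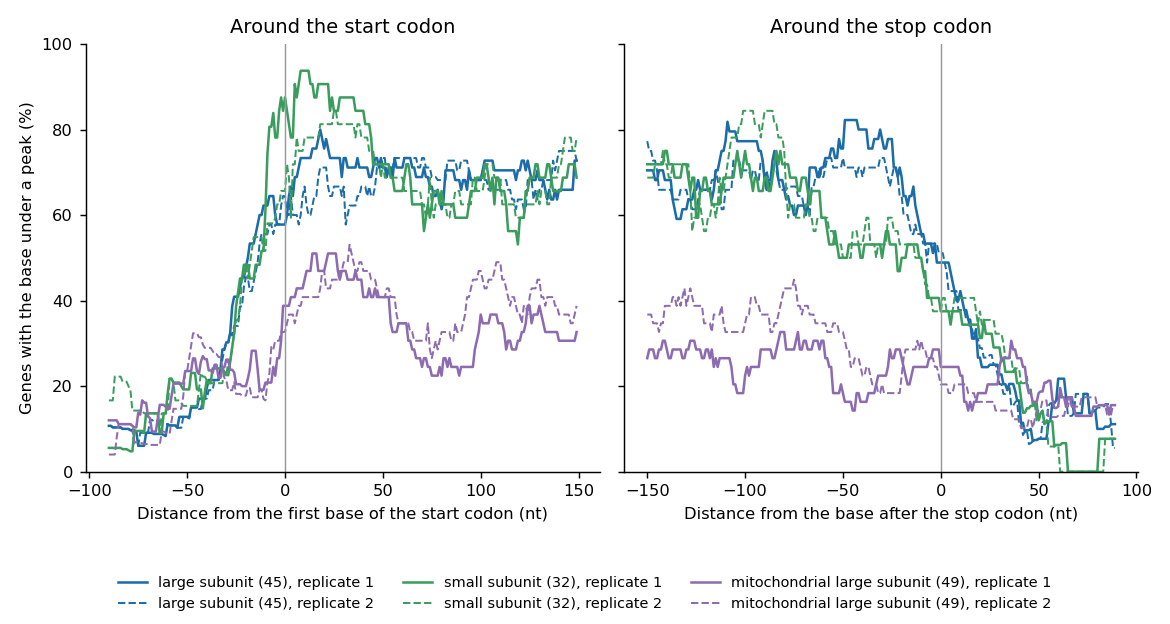
Percent of genes with each base under a peak (vertical axis) by distance in nt from the start codon (left) and from the base after the stop codon (right), over the genes whose transcript reaches that base; solid lines are replicate 1 and dashed lines replicate 2. The large subunit curves climb to between 60 and 80 percent just inside the start codon and then stay level. They begin to fall in the last 30 nt before the stop codon and drop further after it. The mitochondrial curves stay lower within the coding sequence.

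The 5′ ends of the messenger RNAs were compared with the RefSeq promoter table (GRCh38.p14), which held 38 of the 45 genes. The first 20 transcribed bases of 5 members are shown, with the leading pyrimidine run in capitals. They were chosen because they carry, or in RPL4 lack, the TOP motif at the start site of that table. In RPL4 a pyrimidine run begins a few bases further in.
RPL18, chr19:48619159-48619178, minus strand: CTCTTTCCggacctggccga
RPL37A, chr2:216498844-216498863, plus strand: CTTTCTgggctcggacctag
RPL39, chrX:119791611-119791630, minus strand: CCCTCCTCTTCCTTTCTCCg
RPLP2, chr11:809967-809986, plus strand: CCTTTTCCTCCCTgtcgcca
RPL4, chr15:66504836-66504855, minus strand: aagcacttccttttcctgtg
A start with C and a run of at least 5 pyrimidines was present in 25 of the 38, 65.8%, against 4.04% of the 27305 genes of that table. Any of the first 10 bases lay under a peak in 13 members in replicate 1, 9 in replicate 2 and 8 in both, 7 of which had the motif. Of 8777 protein-coding genes of the table with a peak in both libraries, 1.73% had such cover in both. Cover of the first 10 bases was highest in RPL18, with 80% in each library, followed by RPL37A with 60% and 70% and RPL27A with 60% and 40%. It was 0% in both libraries in RPL39, with a run of 19 pyrimidines, and in RPLP2, with a run of 13. The start sites are those of the table, and transcripts in these cells may begin a few bases away.

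The Pumilio element, TGTANATA in the sense strand, was searched in the representative transcripts because Pumilio proteins bring CCR4-NOT to messenger RNAs. It occurred 8 times in 6 members (13.3%), against 24.0% of 19688 coding transcripts, 7 times in a 3′ UTR and once in coding sequence. The elements of RPL37, RPL27A and RPL37A lay in representative 3′ UTRs of 7242, 4066 and 2682 nt, the longest of all members. These counts therefore depend on the isoform chosen. None of the 8 lay wholly under peaks of both libraries, against 14.6% of the 5362 elements in protein-coding genes with a peak in both. The RPL19 and RPL35A elements lay under a peak of replicate 2 only.

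The next question was what part of the member reads lay on RNAs other than the messenger RNA. GENCODE 29 placed 38 snoRNAs on the same strand within 18 members, and 36 of them held the summit of a host gene peak in both libraries. These peaks held 2724 reads in replicate 1 and 2179 in replicate 2, 9.06% and 6.91% of member reads, or 7.98% ± 1.53. The share of all annotated snoRNAs with such a peak was not taken, so whether 36 of 38 is particular to these hosts is not known. Of the 36, 25 were of the box C/D class, which guides methylation, and 11 of the H/ACA class, which guides pseudouridylation. Host peaks covered a median of 74.4% of a box C/D snoRNA and 58.7% of an H/ACA snoRNA. The box C/D snoRNAs were 64 to 99 nt long and the H/ACA ones 130 to 139 nt, so these are percents of unlike lengths. For 34 of the 36 the snoRNA's own gene entry also had peaks in both libraries, so that the same stretch was listed under both names, and reads of a free snoRNA and of the host's intron cannot be told apart.

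RPL3 had the most. SNORD83A had 323 and 209 reads, SNORD43 306 and 208, and SNORD83B 151 and 133, each on the reverse strand of chromosome 22 with the host. Together they made 45.9% and 38.1% of the RPL3 reads. Without them RPL3 had 921 and 894 reads, fewer than RPL8, RPL4, RPL24, RPL13 and RPL37A in both libraries. RPL21 was the other extreme. SNORD102 held 89 of its 93 reads in replicate 1 and all 66 in replicate 2, and host peaks covered 100% of the snoRNA in both, so RPL21 had almost no peak on its messenger RNA. RPL17 had 37.5% and 40.1% of its reads on snoRNAs, RPL23A 30.4% and 29.9%, RPL12 28.8% and 31.2%, RPL7A 26.6% and 16.2%, RPL5 23.4% and 22.6%, and RPL13A 22.5% and 15.6%.

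Most of these snoRNAs had fewer reads in replicate 2, and snoRNAs outside the members were not counted. Of the 36, 30 had fewer and 6 more, both as reads and as a share of each library's peak reads, and together they made 0.172% and 0.131% of all peak reads. Reads of the members off snoRNAs made 1.72% and 1.77%. As reads, 28 of the 45 members had more off snoRNAs in replicate 2 and 17 fewer, but as a share of the library 21 were higher and 24 lower. The largest gaps in reads were in SNORD83A and SNORD43, followed by SNORA7A in RPL32, with 112 and 63 reads, and SNORA3B in RPL27A, with 71 and 24. SNORD58B in RPL17, with 35 and 68 reads, SNORA21 in RPL23, with 49 and 69, and SNORD4A in RPL23A, with 63 and 80, went the other way.

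**Figure D3:**
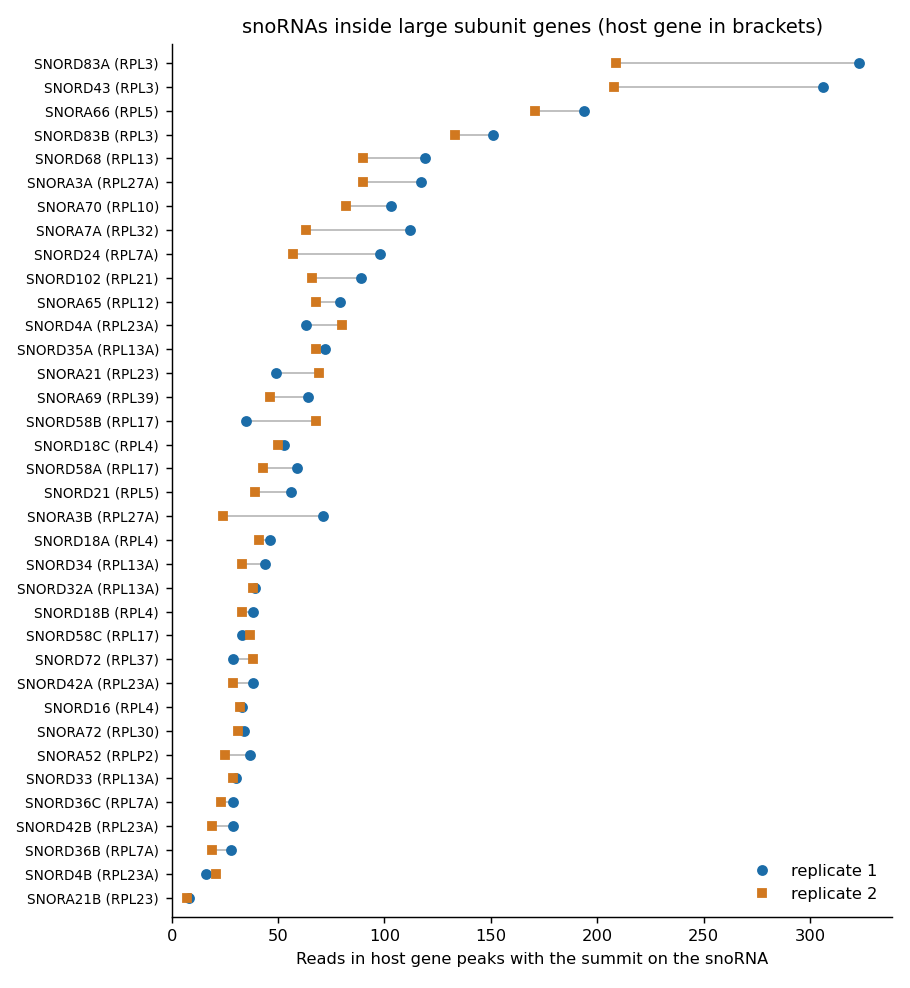
Reads in host gene peaks with the summit on each of the 36 snoRNAs (horizontal axis, reads; circles replicate 1, squares replicate 2), with the host gene in brackets. SNORD83A and SNORD43 of RPL3 lie apart from the rest with over 200 reads in each library, and for 30 of the 36 the square lies left of the circle.

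Pseudogene copies were counted for each coding base. The count was the number of annotated pseudogenes, of 15218 searched, that hold the 25-nt stretch around that base without a mismatch. This measure bears on where a read can be placed, because a read from a stretch with copies fits several places in the genome equally well. Of the 6245 coding bases of members without such a copy, peaks covered 77.0% in replicate 1 and 76.2% in replicate 2, of the 11605 with 1 to 4 copies 73.6% and 72.2%, and of the 5793 with 5 or more copies 38.4% and 39.5%. Cover thus stood apart only in the class with 5 or more copies. The SD between libraries was 0.589, 0.969 and 0.757 percentage points in the 3 classes. It measures how alike the 2 libraries were, not the spread over genes, and the classes pooled bases of 44, 45 and 34 members.

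Lower cover in bases with many copies was also seen within genes. Of 23 members with at least 30 coding bases in each class, cover was lower in the bases with 5 or more copies in both libraries in 19, higher in both in RPL36A alone, and mixed in RPL22, RPL35A and RPL39. In RPL7A, cover was 17.4% and 24.2% in the 524 bases with 5 or more copies and 83.4% and 79.8% in the other 277. In RPL7 it was 35.4% and 38.8% against 94.5% and 93.6%. In RPL5 it was 41.3% and 41.8% against 74.3% and 72.6%. RPL36A had 87.4% and 93.4% against 86.3% and 90.6%.

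Across genes, the 11 members with at least 50% of their coding sequence in that class had a median cover in both libraries of 40.8%, with RPL36A highest at 84.4%, and a median of 612 and 669 reads per kb of coding sequence off snoRNAs. The 19 members with under 5% in that class had a median cover of 84.4%, with RPLP0 lowest at 38.9%, and 1876 and 1917 reads per kb. RPL21, with 66 pseudogenes in the annotation, had 95.03% of its coding sequence in the class, and no coding base was under a peak. RPL17 and RPL29, next lowest in cover, had 65.8% and 56.7% in the class, and RPL37A and RPL38, the highest, 0%. The names of the deposited lists carry the tag multimap 5, and no source used here says what was done under it. Low cover of such stretches and low association cannot be told apart in these lists, and the part of read placement was not tested. RPLP0 and RPL10A, with 2.10% and 6.42% of their coding sequence in the class and 38.9% and 35.8% cover, had low cover with few copies.

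**Figure D4:**
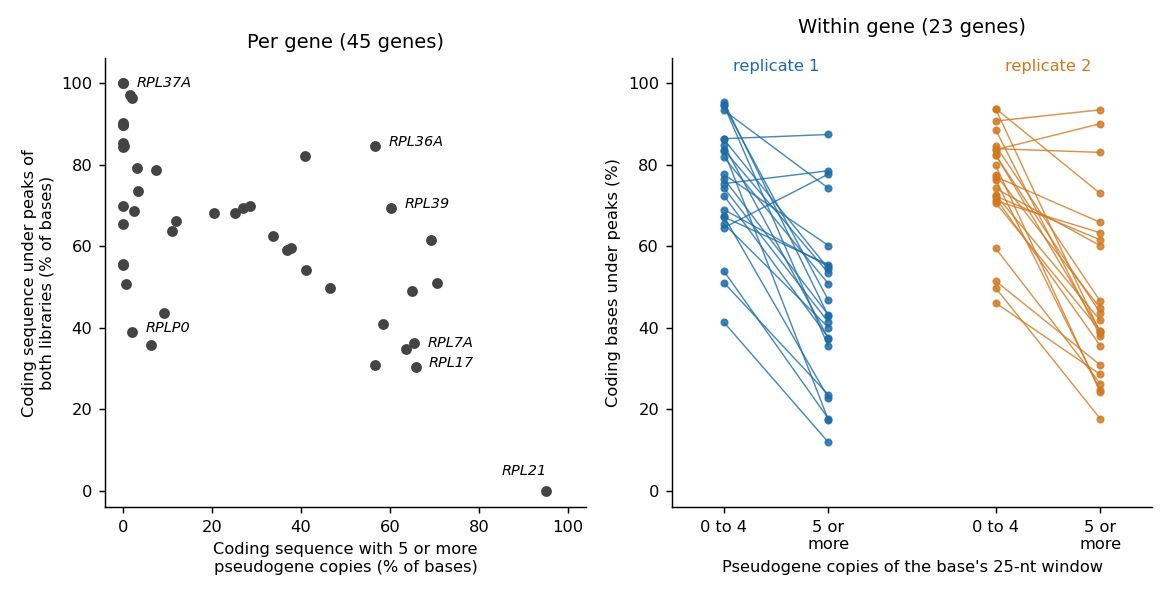
Left, percent of coding bases under peaks of both libraries against percent of coding bases with 5 or more pseudogene copies, 1 point per gene; right, percent of coding bases under peaks in bases with 0 to 4 and with 5 or more copies, 1 line per gene, for each library. RPL21 lies at 95.03% and 0%, RPL36A stands above the other genes with many copies, and most lines on the right run downward.

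Pseudogenes themselves carried peaks. Of the 713 annotated pseudogenes named after members, 212 in replicate 1 and 216 in replicate 2 had peaks, 193 of them in both. Their peaks held 11759 and 12324 reads, equal to 39.1% and 39.1% of the reads of the members themselves. The share of all annotated pseudogenes with peaks was not taken, so whether these counts are high for pseudogenes is not known. Among those named after members, the ranking was as follows. RPL4P4 led with 635 and 536 reads, followed, by the sum of both libraries, by RPL14P1 with 398 and 432, RPL4P5 with 443 and 350, and RPL13P12 with 312 and 414. RPL4, with 1533 and 1381 reads of its own, had 1330 and 1091 on its pseudogenes, whereas RPL21, RPL27 and RPL41, with 66, 1 and 3 annotated pseudogenes, had 0 on theirs in both libraries. Reads of a parent gene and of a near-identical pseudogene are uncertain as to their source.

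Base composition was compared between the 14030 coding bases of members under peaks of both libraries and the other 9613. G made 29.4% of the first and 23.5% of the second, A 28.2% and 29.9%, C 23.1% and 25.7%, and T 19.3% and 20.9%. In the bases without a pseudogene copy G made 30.2% and 23.4%. By gene, G was higher under the peaks in 37 of the 40 members with at least 30 bases on each side, with RPL19, RPL23A and RPL39 as the exceptions. The members did not stand apart in this. G was higher under peaks in 96.1% of 5733 protein-coding genes counted the same way, with a median difference of 9.22 percentage points against 6.004 in members, and in 30 of 30 small subunit genes, with a median difference of 5.22. G was more frequent under peaks at each place of the codon, with 32.9% against 27.7% at the first, 22.7% against 15.8% in the middle and 32.6% against 26.9% at the last. Of 4528 codons wholly under peaks of both libraries, 2.52% were CGG, against 0.686% of the other 3353, and 3.49% were GAG, against 1.79%. The codon AAA went the other way, with 3.75% and 5.40%. These codons were picked for the size of their difference.

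**Figure D5:**
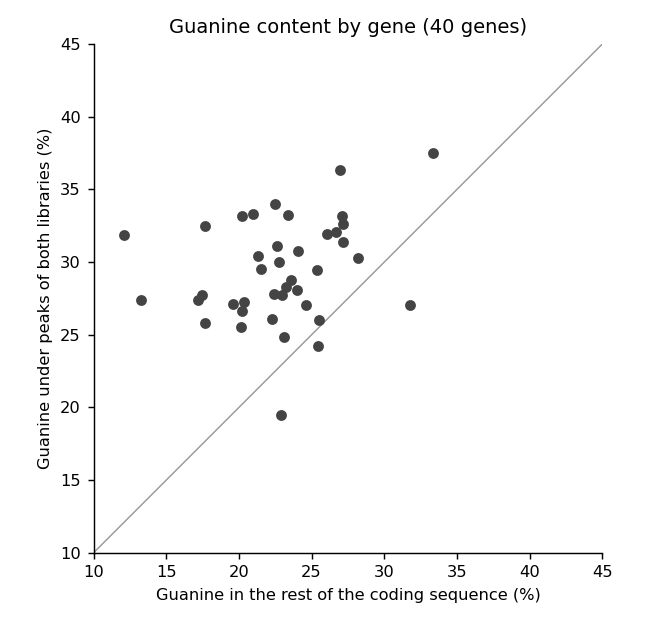
Guanine content under peaks of both libraries (vertical axis, percent of coding bases) against the rest of the same coding sequence (horizontal axis), 1 point for each of 40 genes, with the line of equality. All but 3 genes (RPL19, RPL23A and RPL39) lie above the line.

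Cell identity was checked on the same lists. Of 8 genes expressed in HEK293 lines, 7 had peaks in both libraries, 751 and 876 reads in all, led by VIM, the intermediate filament vimentin, with 494 and 517, and KRT8 was at 0 and 5. Of 10 genes of blood, liver, fibroblasts and muscle, 8 were at 0 in both libraries, MYH7 was at 0 and 3, and ACTA1 had 61 and 85 reads, which are uncertain because its coding sequence is close to that of the other actins.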

How the data were processed

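Each library was deposited as a list of peaks in BED form, called with CLIPper per the file names; no source used here gives its version or annotation. Per the submitters' processing notes, cutadapt 4.2, UMI-tools 1.1.4, STAR 2.7.11 and GRCh38 were used. The deposited score column holds p-values (0.05 or less), not corrected here; read numbers per peak (3 or more) are part of the deposited peak names. Total library depth is not known, so shares are of reads in peaks, and 1 library's number of reads limits only its own precision. No source says whether the replicates are separate cultures, so the SD may be technical. The 45 genes, the gene lists and the roles were chosen with earlier results of these data known.

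Peaks at the same position under several genes were counted once in totals over all genes and kept in values per gene. A peak's place is its summit, the middle of the deposited summit interval. Regions came from GENCODE 29, first over all isoforms (3′ UTR, coding sequence, 5′ UTR, non-coding exon, intron, in that order), then on 1 representative transcript per gene: APPRIS principal, in CCDS, best supported, longest coding sequence, shortest exons. A coding base is covered where it lies between the ends of a same-strand peak of the gene. Intervals are Clopper-Pearson at 95%. The region, overlap and cover steps were tested on simulated peaks. No p-value was computed, since there is 1 group. Genes were named by rule: the 10 members with most and 5 with fewest reads, those with at least 10% of exonic reads in a UTR in both libraries, or 20% on snoRNAs in either, the genes of the 10 strongest repeated peaks, the 3 with most and 3 with least cover, and the 3 leading genes of each list; others were named for their role or after their values were seen. Software: matplotlib 3.10.9, scipy 1.17.1, pandas 2.3.3 and numpy 2.4.6 under Python 3.11.15. Alternatives are given in the closing section.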

Additional observations from a re-analysis of the deposited data

How the results depend on the processing

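Of the values above, 11 summary values (shares of reads, overlap, regions, cover, position, G content) and each member's share of peak reads were recomputed for other choices, 1 at a time; the counts around codons, copy classes, motifs, codons and region shares per gene were not; the cause of a shift was not tested. The choices on snoRNA peaks and on bases without pseudogene copies were added after seeing the data. Keeping peaks with a deposited p-value at or under 1e-05, or with at least 10 reads, gave a member share of peak reads of 2.33% and 2.40% (against 1.90%), an overlap of 95.08% and 95.09%, a median 3′ UTR share of exonic reads of 2.695% under both (against 3.65%), and pseudogene reads of 34.2% and 36.3% of member reads. The share was 1.93% without peaks listed under several genes, 2.61% without ribosomal RNA copies and the mitochondrial genome, and 1.74% without snoRNA peaks. An overlap of 50% of each peak gave 80.6%. Coding sequence held 82.9% of member reads where it was taken first, and 81.7% on the representative transcript, and the median 3′ UTR share was 0% under both. Median cover was 78.9% for peaks of either library, 69.5% in bases without pseudogene copies, and 71.5% to 73.7% without 1 of the replicates. The excess of G under peaks, 5.93 percentage points, was 6.72 in bases without copies and 5.49 to 5.55 without 1 of the replicates. The strongest peak lay at 0.434 by lowest p-value. The other 39 recomputed summary values moved by no more than the SD between libraries. Where a value is a mean of both libraries, leaving out 1 replicate cannot move it further than that SD. Such values therefore say nothing about stability. Under both filters the 10 members with most and the 5 with fewest reads were the same genes, although the shares of 40 and 42 of the 45 genes moved by more than the SD. No paired analysis was possible because there is only 1 group.

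Peak lists carry no depth outside peaks, so a stretch without a peak is one where no peak was called, not one without reads. How reads with several equal placements were treated is not stated, which limits the values of members with many pseudogene copies, RPL21 first among them.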
